A study of Mus musculus with 21 samples.

Results

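The 9 genes described here encode collagens that do not themselves form the banded fibrils of connective tissue: COL6A1, COL6A2, COL6A3, COL8A1, COL12A1, COL14A1, COL15A1, COL16A1 and COL18A1. They were taken by symbol from the gene counts, which listed 24532 genes in embryonic fibroblasts and 24455 in the other fibroblasts. Bulk RNA-seq covered 21 cultures in 7 groups of 3 and compared fibroblasts with and without loss of Prrx1, a homeodomain transcription factor of mesenchymal cells. Total counts per culture ranged from 69588655 to 134790440, and were highest in the MMTV-CAF groups.

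Mouse embryonic fibroblasts (MEF) came from C57BL/6 embryos at embryonic day 10 to 13. They were WT, Prrx1 mutant (129S-Prrx1tm1Jfm/Mmmh, a LacZ insertion in the homeodomain exon, backcrossed to C57BL6) or sgPrrx1 (CRISPR/Cas9 with a guide RNA against Prrx1). Wound-healing fibroblasts came from dorsal wounds of C57BL/6 mice at day 10 and were WT or sgPrrx1. MMTV-CAF, cancer-associated fibroblasts from MMTV-PyMT breast tumours of FVB/NJ mice, were WT or sgPrrx1. The study used a non-targeting guide as control, and whether the WT MEF carried it is not clear from the labels. Cells of every group were immortalized with human papillomavirus E6/E7. Nothing in the labels says that the 3 cultures of a group came from separate animals, clones or derivations, so p-values measure the spread between these cultures, which may be technical. The mutant and sgPrrx1 MEF were compared with the same 3 WT cultures, and fibroblast type cannot be told apart from cell line or, for MMTV-CAF, from strain.

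Collagen VI is assembled from 3 different chains, of which COL6A1 and COL6A2 encode the shorter pair and COL6A3 usually the longest, and forms beaded microfilaments around cells. COL12A1, COL14A1 and COL16A1 encode fibril-associated collagens with interrupted triple helices (FACIT), which sit on or near fibrils and link them to other matrix. COL15A1 and COL18A1 encode the multiplexins, proteoglycan-like collagens of the basement membrane zone, and COL18A1 is the source of endostatin. COL8A1 encodes a short-chain collagen that forms networks and belongs to none of these 3 families. Fibroblasts are a main source of collagen VI and of the FACIT collagens.

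COL6A1 (chr10:76708792-76726044), COL6A2 (chr10:76595756-76623630) and COL18A1 (chr10:77052178-77166530) lie near each other on the minus strand of chromosome 10 in GRCm38.p6. COL6A3, whose product joins those of COL6A1 and COL6A2 in 1 protein, lies elsewhere (chr1:90766860-90844001), as do COL8A1 (chr16:57624256-57754737), COL12A1 (chr9:79598987-79721141), COL14A1 (chr15:55307644-55520803), COL15A1 (chr4:47207655-47313167) and COL16A1 (chr4:130047817-130099277). RefSeq promoter sequences of this build were matched for 7 of the 9 genes, all but COL12A1 and COL14A1. Up to 250 bases before the annotated start of the 3 collagen VI genes are shown, because their transcripts are compared below as parts of 1 protein. All 3 run 5′ to 3′ on the minus strand, lie outside the annotated gene and are in lower case with motif matches in capitals.
COL6A1, chr10:76726045-76726294: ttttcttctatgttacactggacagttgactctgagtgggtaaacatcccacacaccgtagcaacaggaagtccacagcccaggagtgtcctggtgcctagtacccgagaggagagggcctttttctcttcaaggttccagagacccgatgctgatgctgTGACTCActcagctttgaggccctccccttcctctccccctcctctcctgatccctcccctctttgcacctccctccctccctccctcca
COL6A2, chr10:76623631-76623880: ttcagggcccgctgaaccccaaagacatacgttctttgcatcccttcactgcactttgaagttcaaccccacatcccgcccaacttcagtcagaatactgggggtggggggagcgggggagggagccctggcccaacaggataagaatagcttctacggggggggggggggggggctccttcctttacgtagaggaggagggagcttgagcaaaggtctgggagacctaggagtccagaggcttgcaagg
COL6A3, chr1:90844002-90844221: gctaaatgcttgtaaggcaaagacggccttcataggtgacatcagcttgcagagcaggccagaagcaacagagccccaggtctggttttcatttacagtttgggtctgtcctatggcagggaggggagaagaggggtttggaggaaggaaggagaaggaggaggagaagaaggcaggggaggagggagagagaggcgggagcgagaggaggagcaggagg

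Both strands of the 250 bases before each start were searched for 4 motifs. The homeodomain core was TAATTA, found in 4.84% of all 32851 promoters in the table. The Smad element was CAGACA, found in 17.1% of them. The AP-1 site was TGACTCA, found in 4.46%. The TATA box was TATAAA, found in 12.4%. The COL6A1 window held 1 AP-1 site, and the COL6A2 and COL6A3 windows held none of the 4 motifs. Among the other members, COL8A1 and 1 of the 2 starts of COL18A1 held 1 Smad element each, and COL15A1 and COL16A1 held none. A match describes the letters only.

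Prrx1 transcript (PRRX1 in the counts) was lower in every mutant or sgPrrx1 culture than in every WT culture of its type. Levels are given as CPM, counts relative to library size after scaling the 21 libraries together by TMM. WT MEF replicates 1, 2 and 3 were at 192, 166 and 184 CPM, mutant MEF at 26.1, 20.7 and 19.8 and sgPrrx1 MEF at 125, 94.8 and 140.4. The transcript was much lower in the mutant than in the sgPrrx1 MEF, which stayed at 0.660 of WT. Wound-healing fibroblasts were at 146, 143 and 152 CPM in WT and 65.3, 64.2 and 65.1 in sgPrrx1 cultures. MMTV-CAF were at 627, 632 and 636 CPM in WT and 308, 309 and 301 in sgPrrx1 cultures. Counts over the whole gene do not show whether an edited transcript still encodes protein.

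In WT cells, COL6A1 had the highest level per length of the 9 genes in all 3 fibroblast types, and COL14A1 and COL15A1 were the lowest. Levels per length are given as RPKM, CPM per kilobase of the exons of Gencode M1. All annotated exons of a gene were counted together, so the order of genes and ratios between genes depend on these lengths. COL6A1 was at 140.0 ± 9.33 RPKM in MEF (SD, n = 3), 99.3 ± 0.942 in wound-healing fibroblasts (SD, n = 3) and 329 ± 3.14 in MMTV-CAF (SD, n = 3). COL6A2 and COL6A3 followed in MEF and MMTV-CAF. In wound-healing fibroblasts COL8A1 was second, at 41.1 ± 0.551 RPKM (SD, n = 3), above COL6A2 at 32.6 ± 0.776 (SD, n = 3), and COL6A3 was at only 8.32 ± 0.203 (SD, n = 3). In CPM, COL6A2 was above COL8A1 there, at 272 against 210. The order of these genes thus rests on the exon lengths used, 8326 bases for COL6A2 and 5108 for COL8A1. COL12A1 and COL16A1 were close to each other in every WT type, with 11.4 ± 0.417 and 10.7 ± 1.05 RPKM in MEF (SD, n = 3). COL14A1 was at 0.117 ± 0.0278 RPKM in MEF (SD, n = 3).

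**Figure D1:**
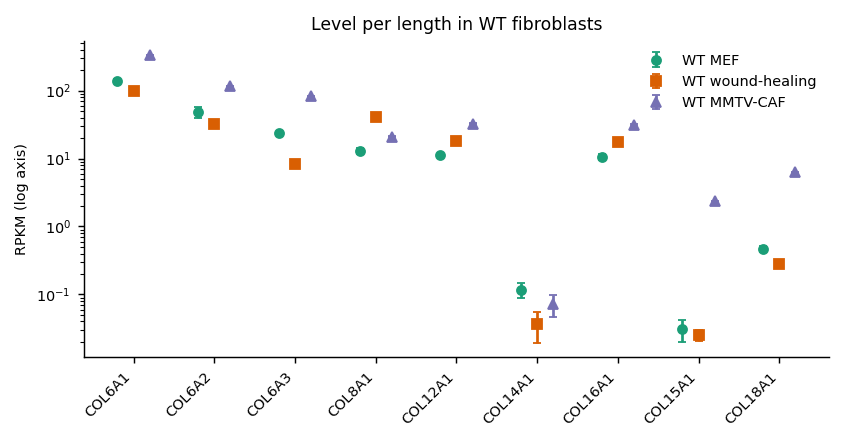
Level per length (RPKM, log axis) of the 9 collagen genes in WT MEF, wound-healing fibroblasts and MMTV-CAF. Points are means and bars the SD of 3 cultures; COL6A1 is highest in each type, and COL15A1 and COL18A1 stand far higher in MMTV-CAF than in the other types.

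Among the WT groups, MMTV-CAF had the highest levels of 7 of the 9 genes. The exceptions were COL8A1, highest in wound-healing fibroblasts, and COL14A1, highest in MEF by its mean. No share of all genes is given for this order, which describes these 9 genes only. COL15A1 was at 14.8 ± 0.433 CPM (SD, n = 3) in MMTV-CAF, 70.5-fold higher than in MEF (edgeR adjusted p = 3.97e-09). COL18A1 was 13.0-fold higher in MMTV-CAF than in MEF and 20.98-fold higher than in wound-healing fibroblasts. Every culture of MMTV-CAF exceeded every other WT culture for both multiplexins. COL6A3 was 9.35-fold higher in MMTV-CAF than in wound-healing fibroblasts. Wound-healing fibroblasts differed from MEF in 8 of the 9 genes (5 lower and 3 higher) where 80.3% of all genes tested differed. MMTV-CAF differed from MEF in 8, all higher, against 79.2% of all genes, and from wound-healing fibroblasts in 8 (1 lower, COL8A1, and 7 higher) against 80.4%. The shares that differed are near the background, which counts both directions together, and no share of all genes is given for a single direction. The median log2 fold change of the 9 was −0.46 for wound-healing fibroblasts against MEF. It was 1.48 for MMTV-CAF against MEF and 1.65 for MMTV-CAF against wound-healing fibroblasts. Over all genes tested these medians were 0.024, 0.026 and −0.029. COL15A1 was not called between wound-healing fibroblasts and MEF (log2 fold change −0.29 ± 0.26, adjusted p = 0.365), and COL14A1 was not called between MMTV-CAF and MEF (adjusted p = 0.0846) or wound-healing fibroblasts (adjusted p = 0.0626). Without MMTV-CAF replicate 2 the first of these COL14A1 values was 0.0435, and the second was 0.0451 without MMTV-CAF replicate 1 and 0.0186 without wound-healing replicate 2.

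Most of the 9 genes were lower after Prrx1 loss, in every fibroblast type, but no 2 comparisons gave the same list. All 9 passed the filter on low counts in the 4 comparisons with WT, but COL14A1 and COL15A1 passed only through their WT cultures in mutant MEF, sgPrrx1 MEF and sgPrrx1 wound-healing fibroblasts, so that a gene absent after Prrx1 loss could only be called lower there. In mutant MEF 6 genes were lower and 1 was higher than in WT at an edgeR adjusted p under 0.05, where 30.5% of all genes tested were lower and 29.4% higher. In sgPrrx1 MEF 7 were lower and 0 higher (background 22.8% lower and 20.3% higher), and 0 were higher at an unadjusted p under 0.05 or with DESeq2 as well. In sgPrrx1 wound-healing fibroblasts 6 were lower and 2 higher (background 39.3% and 38.3%). In sgPrrx1 MMTV-CAF 6 were lower and 3 higher (background 41.9% and 41.2%). Leaving out COL14A1 and COL15A1 where they passed only through WT, 4 of 7 were lower and 1 higher in mutant MEF, 6 and 0 of 7 in sgPrrx1 MEF and 5 and 2 of 7 in sgPrrx1 wound-healing fibroblasts. Counted so, the share that was lower was 57.1%, 85.7% and 71.4% in these comparisons and 66.7% in MMTV-CAF, above the background in each, while the share that was higher was below it. The median log2 fold change of the 9 was −0.50 in mutant MEF, −1.18 in sgPrrx1 MEF, −1.47 in sgPrrx1 wound-healing cells and −0.67 in sgPrrx1 MMTV-CAF, against 0.0094, 0.0017, 0.0044 and −0.0032 over all genes tested. Placing COL14A1 at the smallest fall its 0 counts allow left the medians of the 9 as they were, and leaving out COL14A1 and COL15A1 as above gave −0.44 in mutant MEF, −1.18 in sgPrrx1 MEF and −1.47 in sgPrrx1 wound-healing cells. In bulk RNA, fewer cells expressing a gene and less RNA per cell cannot be told apart.

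**Figure D2:**
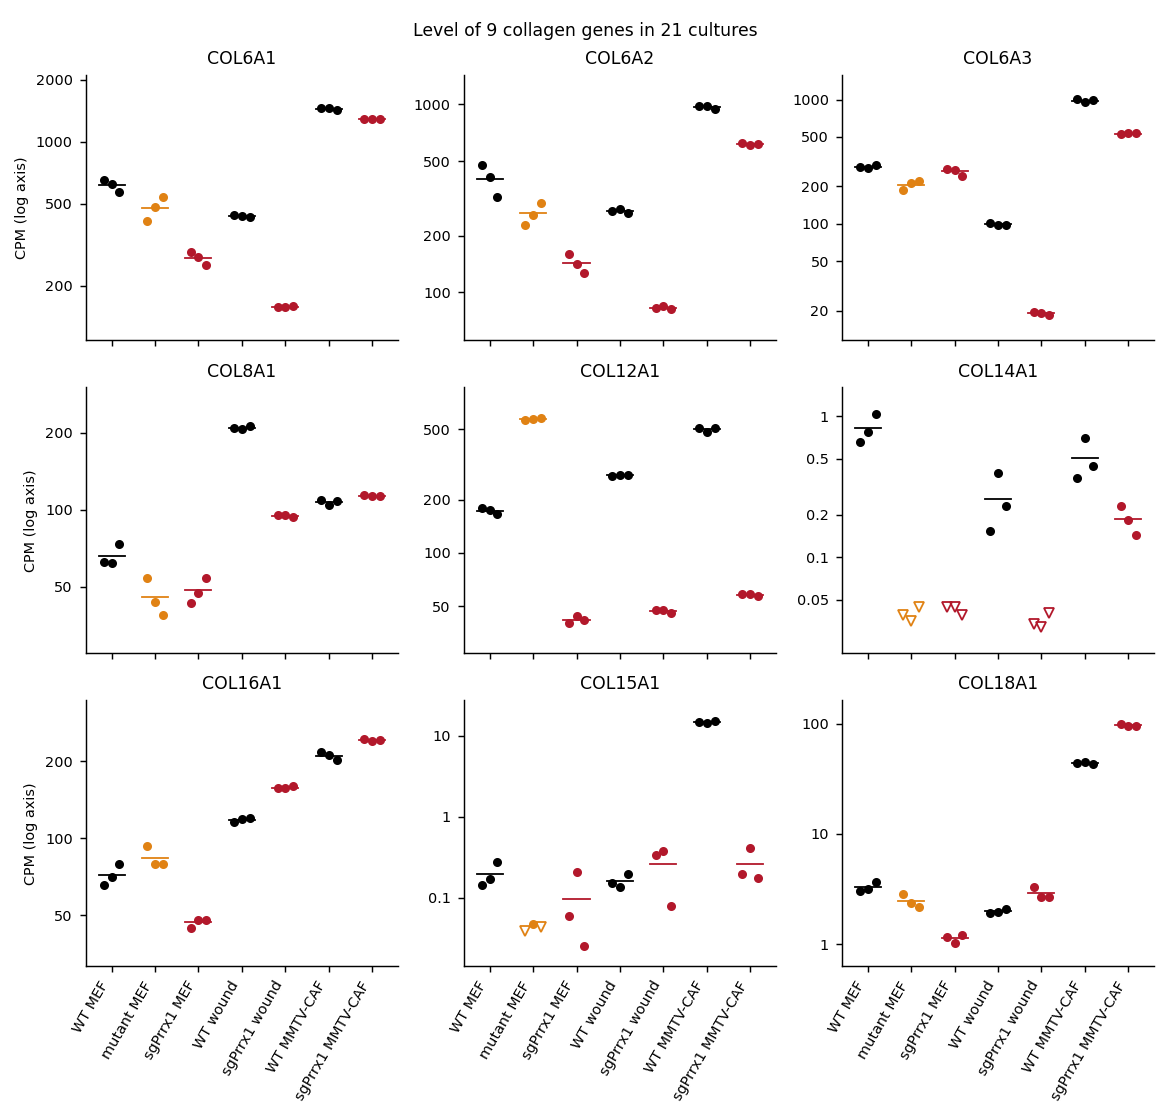
CPM (log axis) of each collagen gene in every culture, by group, with WT in black, Prrx1 mutant MEF in orange and sgPrrx1 cells in red. Points are cultures, lines are group means (not drawn where a culture had 0 counts) and open triangles mark 0 counts, drawn at the level of 3 counts; COL14A1 had 0 counts in the mutant and sgPrrx1 MEF and in the sgPrrx1 wound-healing fibroblasts, and COL15A1 in 2 mutant MEF cultures.

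Summed over the 9 genes, transcript in sgPrrx1 cells was lower than in WT in each type, while mutant and WT MEF differed by less than their spread. WT MEF were at 1621 ± 106 CPM in all (SD, n = 3), mutant MEF at 1650.4 ± 111 (SD, n = 3) and sgPrrx1 MEF at 819 ± 45.5 (SD, n = 3). The sum went from 1412 ± 3.68 to 563 ± 1.23 CPM in wound-healing fibroblasts (SD, n = 3) and from 4270.4 ± 54.4 to 2949.9 ± 7.85 in MMTV-CAF (SD, n = 3). In mutant MEF the higher COL12A1 stood against lower collagen VI.

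The 3 collagen VI genes fell in every comparison, with the exception of COL6A3 in sgPrrx1 MEF. COL6A1, the chain needed for assembly, was at 652, 622 and 571 CPM in WT MEF, 410.0, 484 and 539.9 in mutant MEF and 292, 275 and 253 in sgPrrx1 MEF. Neither group overlapped WT, and the sgPrrx1 cultures were lowest. Its log2 fold change was −0.39 ± 0.11 (SE) in mutant MEF (adjusted p = 0.0203) and −1.18 ± 0.083 in sgPrrx1 MEF (adjusted p = 9.35e-05). The mutant call was lost without WT replicate 1 (adjusted p = 0.0688), WT replicate 2 (0.0665) or mutant replicate 2 (0.0634). In wound-healing fibroblasts COL6A1 went from 441, 435 and 433 CPM to 159, 158 and 159, 0.362 of WT (log2 fold change −1.47 ± 0.018, adjusted p = 9.06e-11). In MMTV-CAF it went from 1457, 1451 and 1431 CPM to 1293, 1289 and 1295, still 0.882 of WT (log2 fold change −0.18 ± 0.013, adjusted p = 4.38e-06). The fall in MMTV-CAF was small beside that in wound-healing fibroblasts, although the cultures of each group lay close together.

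COL6A2 fell further than COL6A1 in each comparison by its point estimate. Its log2 fold change was −0.64 ± 0.16 (SE) in mutant MEF (adjusted p = 0.0125), −1.51 ± 0.16 in sgPrrx1 MEF (adjusted p = 4.82e-04), −1.72 ± 0.025 in wound-healing fibroblasts (adjusted p = 1.99e-10) and −0.67 ± 0.020 in MMTV-CAF (adjusted p = 1.79e-08). WT MEF varied most, at 477, 411 and 321 CPM, against 229.7, 259 and 300.5 in mutant and 160.0, 142 and 127 in sgPrrx1 MEF. The lowest WT culture was close above the highest mutant culture, and the sgPrrx1 cultures were all lower than both. Wound-healing fibroblasts were at 273, 278 and 265 CPM in WT and 82.6, 84.3 and 81.8 in sgPrrx1 cultures. MMTV-CAF were at 981, 977 and 945 CPM in WT and 621, 611 and 615 in sgPrrx1 cultures, and neither pair overlapped.

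COL6A3, the longest of the 3 chains, went from 102, 97.6 and 98.5 CPM in WT to 19.4, 19.2 and 18.3 in sgPrrx1 wound-healing fibroblasts, 0.190 of WT (log2 fold change −2.39 ± 0.032, adjusted p = 1.40e-10). MMTV-CAF kept 0.535 of WT, with 1003, 949.8 and 991 CPM in WT and 526, 535 and 535 in sgPrrx1 cultures. Mutant MEF, at 187, 213 and 221 CPM, kept 0.707 of WT (log2 fold change −0.50 ± 0.081, adjusted p = 0.00172). The sgPrrx1 MEF, at 278, 271 and 245 CPM against 285, 283 and 296 in WT, did not overlap WT but were not called (log2 fold change −0.14 ± 0.069, adjusted p = 0.150).

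The ratio of the chains within a culture differed between groups. Per length, COL6A3 was at 0.173 ± 0.0158 of COL6A1 in WT MEF (SD, n = 3), 0.160 ± 0.00886 in mutant MEF (SD, n = 3) and 0.356 ± 0.00679 in sgPrrx1 MEF (SD, n = 3). The ratio of the sgPrrx1 MEF was above that of all WT and mutant MEF cultures. In the other types the sgPrrx1 cultures had the lower ratio, with 0.0837 ± 0.00136 in WT and 0.0440 ± 0.00160 in sgPrrx1 wound-healing fibroblasts (SD, n = 3) and 0.249 ± 0.00767 and 0.151 ± 0.00159 in MMTV-CAF (SD, n = 3). COL6A2 per COL6A1 was more even, from 0.251 ± 0.00171 in sgPrrx1 MMTV-CAF (SD, n = 3) to 0.353 ± 0.00400 in WT MMTV-CAF (SD, n = 3), and was lower with Prrx1 loss in each type by its mean. With 3 cultures against 3, an exact permutation test of such a ratio cannot give a p under 0.1, and none is given.

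**Figure D3:**
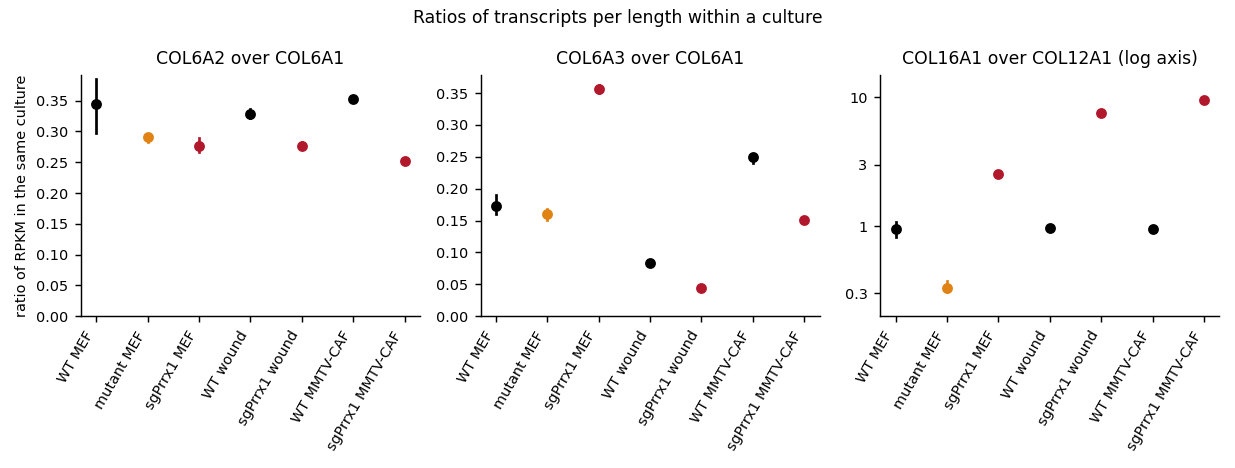
Ratio of RPKM of 2 genes within a culture, for COL6A2 and COL6A3 over COL6A1 and, on a log axis, COL16A1 over COL12A1. Points are group means and bars span the lowest to the highest of 3 cultures; COL6A3 over COL6A1 is highest in sgPrrx1 MEF, and COL16A1 over COL12A1 is near 1 in the 3 WT groups.

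COL8A1 fell in MEF and wound-healing fibroblasts and was nearly level in MMTV-CAF. Wound-healing fibroblasts, which had the highest WT level of this network-forming collagen, went from 209.6, 207 and 213 CPM to 95.4, 95.5 and 93.9, 0.451 of WT (log2 fold change −1.15 ± 0.019, adjusted p = 4.10e-10). WT MEF were at 62.7, 61.8 and 73.9 CPM, mutant MEF at 54.1, 43.8 and 39.0 and sgPrrx1 MEF at 43.4, 47.6 and 54.4. Neither group overlapped WT, and they overlapped each other. The log2 fold change was −0.55 ± 0.14 (SE) in mutant MEF (adjusted p = 0.0139) and −0.46 ± 0.11 in sgPrrx1 MEF (adjusted p = 0.0144). The first call was lost without mutant replicate 2 (adjusted p = 0.0547) and the second without sgPrrx1 replicate 2 (0.0599). In MMTV-CAF it was 1.05-fold higher, with 109, 104 and 108 CPM in WT and 114, 113 and 114 in sgPrrx1 cultures (adjusted p = 0.0263). That small difference was not called without WT replicate 2 (adjusted p = 0.0709), WT replicate 3 (0.0563), sgPrrx1 replicate 1 (0.0622) or sgPrrx1 replicate 3 (0.0524).

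COL12A1, a FACIT gene, changed in both directions: it fell in all sgPrrx1 cells and rose in Prrx1 mutant MEF. WT MEF were at 179, 174 and 166 CPM, mutant MEF at 561, 570.3 and 579 and sgPrrx1 MEF at 40.1, 43.6 and 41.9. The mutant cultures were the highest of all 7 groups and the sgPrrx1 MEF the lowest. The log2 fold change was 1.698 ± 0.073 (SE) in mutant MEF, 3.24-fold higher than WT (adjusted p = 5.23e-06), and −2.06 ± 0.070 in sgPrrx1 MEF, 0.240 of WT (adjusted p = 7.40e-06). Wound-healing fibroblasts went from 272, 276 and 277 CPM in WT to 47.6, 47.6 and 45.7 in sgPrrx1 cultures, 0.170 of WT (log2 fold change −2.55 ± 0.023, adjusted p = 2.61e-11). MMTV-CAF went from 507, 481 and 506 CPM to 58.3, 58.4 and 56.8, 0.115 of WT (log2 fold change −3.13 ± 0.026, adjusted p = 4.85e-11). The sgPrrx1 groups of the 3 types, which started from WT levels between 173 and 498 CPM, all lay between 41.9 and 57.8 CPM.

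COL16A1 rose in sgPrrx1 wound-healing fibroblasts and MMTV-CAF and fell in sgPrrx1 MEF. Wound-healing fibroblasts were at 115, 118 and 119.6 CPM in WT and 157, 157 and 160.1 in sgPrrx1 cultures, 1.34-fold higher (log2 fold change 0.42 ± 0.022, adjusted p = 3.06e-07). MMTV-CAF were at 217, 211 and 203 and 244, 239 and 242 CPM, 1.14-fold higher (adjusted p = 3.28e-04). Neither pair of groups overlapped. WT MEF were at 65.7, 70.7 and 79.7 CPM and sgPrrx1 MEF at 44.8, 47.7 and 48.1, 0.645 of WT (adjusted p = 0.00156). Mutant MEF, at 93.2, 79.5 and 79.2 CPM, overlapped WT and were not called (log2 fold change 0.20 ± 0.11, adjusted p = 0.151). The proportion of these FACIT genes was nearly the same in the WT groups and differed with Prrx1 loss. Per length, COL16A1 was at 0.943 ± 0.128 of COL12A1 in WT MEF (SD, n = 3), 0.966 ± 0.00899 in WT wound-healing fibroblasts (SD, n = 3) and 0.953 ± 0.0434 in WT MMTV-CAF (SD, n = 3). It was at 2.53 ± 0.0636, 7.59 ± 0.280 and 9.44 ± 0.180 in the sgPrrx1 cultures of these types (SD, n = 3), and at 0.333 ± 0.0367 in mutant MEF (SD, n = 3).

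COL14A1, the last of the FACIT genes, was barely detected in WT and had no counts in 3 of the 4 groups with Prrx1 loss. WT MEF had 45, 54 and 90 counts, and the mutant and sgPrrx1 MEF had 0 in all 6 cultures. Taking 3 counts per library as the limit that a count of 0 allows, COL14A1 was at least 20.9-fold lower in mutant MEF and at least 19.4-fold lower in sgPrrx1 MEF. Wound-healing fibroblasts had 14, 32 and 20 counts in WT and 0 in each sgPrrx1 culture, at least 7.38-fold lower. No p is given for these 3 comparisons, since COL14A1 was tested in them only because its WT cultures passed the filter. In MMTV-CAF, the deepest libraries, 39, 81 and 59 counts in WT stood against 26, 25 and 16 in sgPrrx1 cultures (log2 fold change −1.46 ± 0.33, adjusted p = 0.00372). These limits cover counting error only.

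**Figure D4:**
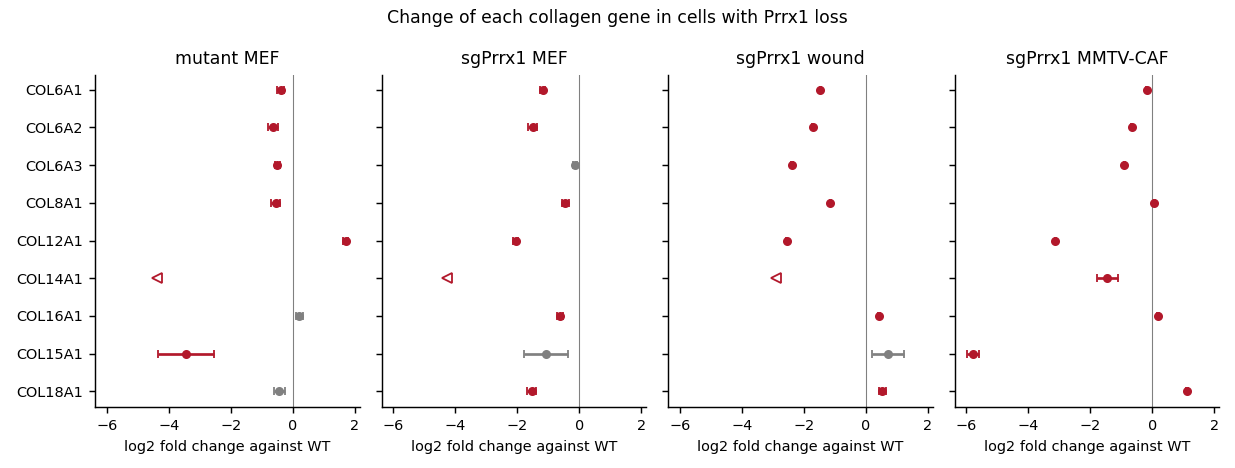
Log2 fold change against WT of the same type for each collagen gene in the 4 groups with Prrx1 loss, with bars for the standard error. Red points passed an edgeR adjusted p under 0.05 and grey points did not; open triangles mark COL14A1 where all cultures had 0 counts, drawn at the smallest fall that 3 counts per library allow.

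The multiplexins moved in opposite directions in MMTV-CAF. COL15A1 went from 14.8, 14.4 and 15.3 CPM to 0.195, 0.414 and 0.179, 0.0181 of WT (log2 fold change −5.79 ± 0.19, adjusted p = 3.46e-08). COL18A1 went from 44.1, 45.1 and 43.3 CPM to 99.5, 94.6 and 94.7, 2.15-fold higher (log2 fold change 1.10 ± 0.032, adjusted p = 1.55e-08). The COL15A1 level of the sgPrrx1 cultures overlapped that of WT MEF and of WT wound-healing fibroblasts, and counts of COL18A1 pool its 2 starts. Per length, COL15A1 fell from 0.371 ± 0.0182 of COL18A1 in WT (SD, n = 3) to 0.00303 ± 0.00156 in sgPrrx1 MMTV-CAF (SD, n = 3).

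Outside MMTV-CAF both multiplexins were scarce. COL18A1 was at 3.04, 3.17 and 3.68 CPM in WT MEF, 2.85, 2.38 and 2.17 in mutant MEF and 1.17, 1.03 and 1.22 in sgPrrx1 MEF. The sgPrrx1 MEF were at 0.344 of WT (adjusted p = 4.13e-04). The mutant cultures did not overlap WT but were not called (log2 fold change −0.44 ± 0.17, adjusted p = 0.0583). It was called without mutant replicate 1 (adjusted p = 0.0313), under a filter of 10 counts throughout (0.0459) and in the model of all 9 MEF cultures (0.0309). In wound-healing fibroblasts COL18A1 rose from 1.92, 1.98 and 2.10 to 3.30, 2.69 and 2.69 CPM, 1.45-fold (adjusted p = 0.00338). COL15A1 had 10, 12 and 24 counts in WT MEF, 0, 4 and 0 in mutant MEF and 4, 14 and 2 in sgPrrx1 MEF. The mutant group was below WT in each culture, and the sgPrrx1 group overlapped WT and was not called. COL15A1 passed the filter only through WT in both comparisons, so no p is given. In wound-healing fibroblasts, where it also passed only through WT and was not called, it had 14, 11 and 17 counts in WT. The sgPrrx1 cultures had 30, 35 and 6 (log2 fold change 0.72 ± 0.51). That value rested on sgPrrx1 replicate 3, without which the log2 fold change was 1.12 and COL15A1 was called higher.

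The change with sgPrrx1 differed between fibroblast types for 8 genes by the interaction of type and sgPrrx1, where 80.1% of all genes tested were called. The change of COL14A1 is not counted here, as its 0 counts in sgPrrx1 MEF and sgPrrx1 wound-healing fibroblasts leave the size of its falls undefined. COL12A1 fell in the 3 types but by unequal amounts, least in MEF and most in MMTV-CAF. Its log2 fold change in wound-healing fibroblasts minus that in MEF was −0.53 ± 0.056 (SE), and that in MMTV-CAF minus that in wound-healing fibroblasts was −0.52 ± 0.056. COL6A3 had the most unequal fall of the collagen VI genes, with a difference of −2.29 ± 0.067 for wound-healing fibroblasts minus MEF (adjusted p = 3.16e-13). COL16A1 and COL18A1 changed in opposite directions, falling in MEF and rising in the other types, with differences of 1.02 ± 0.074 and 2.04 ± 0.13 for wound-healing fibroblasts minus MEF. Of the pairs of types, wound-healing fibroblasts and MEF differed in 6 of the 8 genes (background 60.3%), while MMTV-CAF differed in 8 from MEF (60.7%) and in 8 from wound-healing fibroblasts (66.5%). COL6A2 was 1 of the 2 not called between wound-healing fibroblasts and MEF (difference −0.24 ± 0.15, adjusted p = 0.178), with COL15A1 (adjusted p = 0.0764).

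Between the 2 kinds of Prrx1 loss in MEF, compared directly without the shared WT cultures, 7 of the 9 genes had enough counts to test. The sgPrrx1 MEF were lower in 5 (background 28.4%) and higher in 1 (27.8%). COL12A1 differed most, with a log2 fold change of −3.76 ± 0.065 for sgPrrx1 against mutant MEF (adjusted p = 1.08e-06). COL18A1 (−1.11 ± 0.16), COL6A2 (−0.87 ± 0.13), COL16A1 (−0.84 ± 0.089) and COL6A1 (−0.80 ± 0.11) were lower too. COL6A3 was 1.28-fold higher in the sgPrrx1 MEF (adjusted p = 0.0115), and COL8A1 was not called (0.091 ± 0.15, adjusted p = 0.626).

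Ordered over the 7 groups, the collagen VI genes were highest in WT MMTV-CAF, next in sgPrrx1 MMTV-CAF and lowest in sgPrrx1 wound-healing fibroblasts. For COL6A1, mutant MEF and WT wound-healing fibroblasts were neighbours whose cultures overlapped, and so they were for COL6A2. For COL6A3 no neighbours overlapped. COL12A1 ran from mutant MEF through WT MMTV-CAF, WT wound-healing fibroblasts and WT MEF to the 3 sgPrrx1 groups, with no overlap between neighbours. COL16A1 and COL18A1 were highest in sgPrrx1 MMTV-CAF and lowest in sgPrrx1 MEF. For COL15A1, every neighbour below WT MMTV-CAF overlapped the next.

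Genes that fold, bind or surround these collagens were counted in 6 lists, and each list held both lower and higher genes in at least 1 comparison. Over all genes tested, 30.5% were lower and 29.4% higher in mutant MEF, 22.8% and 20.3% in sgPrrx1 MEF, 39.3% and 38.3% in sgPrrx1 wound-healing fibroblasts and 41.9% and 41.2% in sgPrrx1 MMTV-CAF, with medians near 0. As counted here, the lower share of a list was above these values in each comparison, with exceptions in wound-healing fibroblasts only. These were the basement membrane zone (35.7% lower and 50.0% higher) and the other non-fibrillar collagens (22.2% lower and 55.6% higher). Several shares lay near the background. Listed genes and markers that passed the filter only through WT, such as ITGA11 in wound-healing fibroblasts, could only be called lower. They were kept in these counts, unlike in the second count of the 9 genes above. The lower share of a list may therefore stand above the background partly through them, and the lists were not recounted without them. Of the 11 collagen receptors and uptake genes (10 tested in MEF, all 11 in the other types), 6 were lower and 3 higher in mutant MEF, 7 and 1 in sgPrrx1 MEF, 6 and 3 in sgPrrx1 wound-healing fibroblasts and 9 and 1 in sgPrrx1 MMTV-CAF. Their median log2 fold changes were −0.71, −0.42, −0.34 and −0.71. ITGB1, the shared chain of the collagen-binding integrins, had the highest level, at 1187 CPM in WT MEF. CSPG4 (NG2), a proteoglycan receptor of collagen VI, fell in all 4, by log2 fold changes of −1.47 ± 0.14 in mutant MEF, −0.46 ± 0.10 in sgPrrx1 MEF, −1.73 ± 0.066 in sgPrrx1 wound-healing cells and −3.28 ± 0.028 in sgPrrx1 MMTV-CAF. ITGA11, an integrin chain for fibrillar collagen, rose in mutant MEF (0.88 ± 0.13) and fell in sgPrrx1 MEF (−4.72 ± 0.32), wound-healing fibroblasts (from 13.6 to 0.0365 CPM) and, slightly, MMTV-CAF (−0.075 ± 0.028). DDR1, a collagen receptor kinase, rose in mutant MEF (0.46 ± 0.078), sgPrrx1 MEF (0.80 ± 0.059) and wound-healing fibroblasts (1.46 ± 0.031) and fell in MMTV-CAF (−0.85 ± 0.025).

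Of the 13 interfibrillar and pericellular partners, 7 of 12 tested were lower in mutant MEF, 9 of 12 in sgPrrx1 MEF, 8 of 12 in wound-healing fibroblasts and 11 of 13 in MMTV-CAF, with 3, 0, 4 and 2 higher. Median log2 fold changes were −1.06, −1.33, −1.13 and −1.67. ASPN (asporin), a small proteoglycan that binds collagen, fell in all 4, from 24.1 CPM in WT MEF to 0.899 in mutant and 0.306 in sgPrrx1 MEF. DCN (decorin), which binds fibrils and collagen VI, fell in mutant MEF from 48.7 to 0.142 CPM, in sgPrrx1 MEF to 9.56 and in wound-healing fibroblasts from 9.57 to 4.16, and rose in MMTV-CAF from 32.4 to 588. FN1 (fibronectin) rose in mutant MEF (log2 fold change 0.51 ± 0.12) and wound-healing fibroblasts (0.53 ± 0.017) and fell in sgPrrx1 MEF (−0.47 ± 0.10) and MMTV-CAF (−0.94 ± 0.014).

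Of the 11 fibrillar collagens, all tested except COL24A1 in MEF, 6 were lower and 4 higher in mutant MEF, 8 and 0 in sgPrrx1 MEF, 7 and 3 in wound-healing fibroblasts and 8 and 2 in MMTV-CAF (medians −0.47, −0.77, −0.70 and −0.99). Set against COL1A1, the main chain of collagen I, COL6A1 per length was at 0.207 ± 0.00182 in WT and 0.553 ± 0.00285 in sgPrrx1 MMTV-CAF (SD, n = 3), and at 0.305 ± 0.0288 in WT, 0.717 ± 0.0409 in mutant and 0.237 ± 0.00964 in sgPrrx1 MEF (SD, n = 3). The ratio was thus higher in mutant MEF and sgPrrx1 MMTV-CAF than in any WT culture of the type and lower in sgPrrx1 MEF. In wound-healing fibroblasts this ratio was 0.197 ± 0.00509 in WT and 0.191 ± 0.00166 in sgPrrx1 cultures (SD, n = 3), which overlapped. Of 18 other non-fibrillar collagens, 8, 7, 9 and 11 were tested in the 4 comparisons, with 4, 5, 2 and 6 lower and 2, 0, 5 and 2 higher. COL8A2, which encodes the other chain of collagen VIII, fell in mutant MEF (−0.82 ± 0.27) and rose in sgPrrx1 wound-healing fibroblasts (from 0.344 to 0.736 CPM). It was at 1.14 CPM in WT and 0.0816 in sgPrrx1 MEF, and at 2.54 in WT and 0.0578 in sgPrrx1 MMTV-CAF. In both sgPrrx1 MEF and sgPrrx1 MMTV-CAF it passed the filter only through WT. COL6A4, an alternative to COL6A3 in the mouse, rose in MMTV-CAF (1.02 ± 0.13) from 0.717 to 1.48 CPM, and in wound-healing fibroblasts from 0.0386 to 0.221, far below COL6A3 in both.

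Of the 24 genes for collagen folding, export and propeptide processing, 22 were tested. In mutant MEF 10 were lower and 5 higher, in sgPrrx1 MEF 15 and 1, in wound-healing fibroblasts 14 and 7, and in MMTV-CAF 16 and 4 (medians −0.077, −0.37, −0.28 and −0.56). P3H2, a prolyl 3-hydroxylase, rose in mutant MEF (1.44 ± 0.082) and fell in sgPrrx1 MEF (−1.35 ± 0.084), wound-healing fibroblasts (−1.06 ± 0.052) and MMTV-CAF (−1.31 ± 0.16). Of the 14 genes of the basement membrane zone, where the multiplexins lie, 9 were lower and 2 higher in mutant MEF, 7 and 2 in sgPrrx1 MEF, 5 and 7 in wound-healing fibroblasts and 9 and 4 in MMTV-CAF (medians −0.78, −0.46, 0.14 and −0.91). LAMA5, a laminin chain, rose in mutant MEF (3.62 ± 0.16) and wound-healing fibroblasts (0.64 ± 0.070) and fell in sgPrrx1 MEF (−1.80 ± 0.20) and MMTV-CAF (−0.80 ± 0.034). The linker NID1 (nidogen) fell in mutant MEF (−2.55 ± 0.13) and MMTV-CAF (−2.27 ± 0.018) and rose in sgPrrx1 MEF (0.83 ± 0.092) and wound-healing fibroblasts (0.16 ± 0.016).

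**Figure D5:**
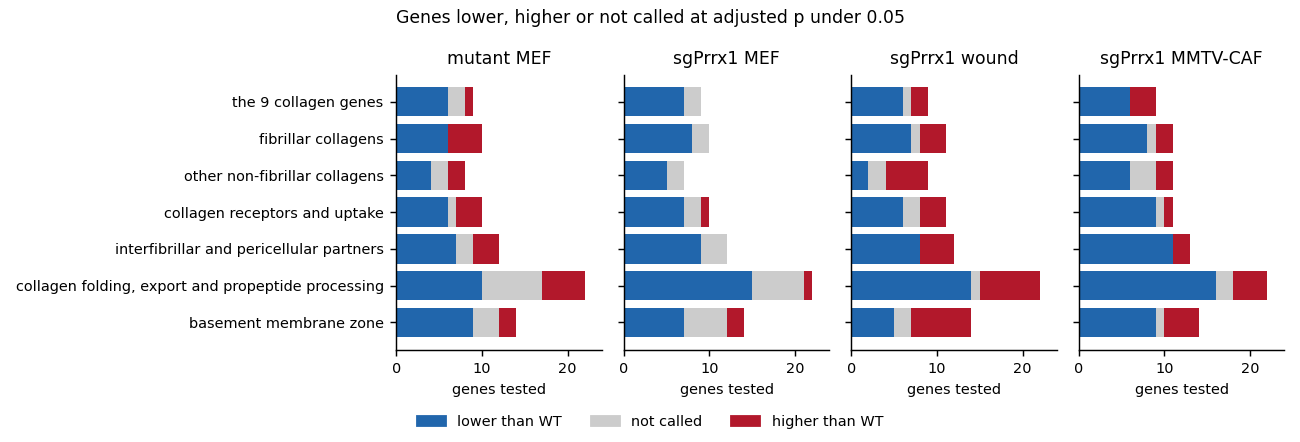
Number of tested genes that were lower (blue), higher (red) or not called (grey) against WT at an edgeR adjusted p under 0.05, for the 9 collagen genes and 6 lists of related genes in the 4 groups with Prrx1 loss. The 9 collagen genes had 6, 7, 6 and 6 lower and 1, 0, 2 and 3 higher. Without those that passed the filter only through WT, 4, 6, 5 and 6 were lower. Such genes are kept in all bars. Of all genes tested, 30.5%, 22.8%, 39.3% and 41.9% were lower and 29.4%, 20.3%, 38.3% and 41.2% higher.

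Markers of fibroblasts were present in every group. Of those tested, 10 of 10 were lower and 0 higher in mutant MEF, 8 of 10 lower and 1 higher in sgPrrx1 MEF, 11 of 12 lower and 0 higher in sgPrrx1 wound-healing fibroblasts, and 8 of 11 lower and 3 higher in sgPrrx1 MMTV-CAF. The higher ones were VIM in sgPrrx1 MEF, from 5071 to 6499 CPM, and PDGFRA, PDPN and DCN in MMTV-CAF, where PDGFRA went from 939 to 1835 CPM and PDPN from 77.8 to 150.0. Among all genes tested, 30.5% were lower and 29.4% higher in mutant MEF, and 22.8% and 20.3% in sgPrrx1 MEF. The shares were 39.3% and 38.3% in sgPrrx1 wound-healing fibroblasts and 41.9% and 41.2% in sgPrrx1 MMTV-CAF. DCN in mutant MEF, FAP and LUM in wound-healing fibroblasts and LUM in MMTV-CAF passed the filter only through WT. They were kept in these counts. Of 12 markers, between 9 and 11 exceeded 1 CPM in a group. Their summed level was 12899.6 ± 172 CPM in WT MEF (SD, n = 3), 6351 ± 644 in mutant MEF (SD, n = 3) and 11013 ± 927 in sgPrrx1 MEF (SD, n = 3), with VIM highest in all 3. It was 9900.0 ± 33.0 in WT and 3988 ± 14.1 in sgPrrx1 wound-healing fibroblasts (SD, n = 3), and 33544 ± 404 in WT and 17087 ± 92.0 in sgPrrx1 MMTV-CAF (SD, n = 3). The sum includes the fibrillar collagens COL1A1, COL1A2 and COL3A1, and COL1A1 led it in WT wound-healing fibroblasts and WT MMTV-CAF. The part of these markers in the collagen changes was not tested. FAP and LUM were scarce throughout, with at most 1.51 and 1.27 CPM in any group, WT included.

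Markers of other cell types were mostly scarce, with some at 0 and some expressed. EPCAM had 0 counts in the 3 MEF groups and both MMTV-CAF groups and at most 0.143 CPM elsewhere, CLDN5 and TIE1 (endothelium), ADGRE1, CD3E and TYROBP (leukocytes), SOX10 (Schwann cells), LEP (adipocytes), COL9A1 and HAPLN1 (chondrocytes) and MYF5 (skeletal muscle) had 0 counts in every culture, and PECAM1 was at most 0.135 CPM in any group. Other members of the same lists were detected. KRT18 was at 12.8 CPM in WT and 9.19 in sgPrrx1 wound-healing fibroblasts, KRT14 at 5.88 in WT and 4.12 in sgPrrx1 MEF, and VWF at 3.82 in WT MEF. CSF1R was at 5.60 CPM in WT and 0.191 in sgPrrx1 MMTV-CAF, and DES at 5.51 in WT and 0.597 in sgPrrx1 wound-healing fibroblasts. KRT19 led the epithelial sum, 18.8 ± 1.09 CPM in WT MEF (SD, n = 3), 219.6 ± 20.9 in mutant MEF (SD, n = 3), 27.1 ± 2.31 in sgPrrx1 MEF (SD, n = 3), 56.5 ± 2.50 and 68.1 ± 2.34 in WT and sgPrrx1 wound-healing fibroblasts (SD, n = 3) and 53.1 ± 1.06 and 0.275 ± 0.0679 in WT and sgPrrx1 MMTV-CAF (SD, n = 3). KDR led the endothelial sum in wound-healing fibroblasts, 290.3 ± 3.09 CPM in WT and 142 ± 2.64 in sgPrrx1 cultures (SD, n = 3), and that sum was at most 8.76 CPM in the other groups. FABP4 led the adipocyte sum of 186 ± 4.06 CPM in sgPrrx1 MMTV-CAF (SD, n = 3), against 6.89 ± 0.328 in WT (SD, n = 3) and at most 2.52 elsewhere. Pericyte and smooth muscle markers, led by CNN1 in MEF and MMTV-CAF, summed to 190.4 ± 5.96 CPM in WT and 35.0 ± 0.965 in sgPrrx1 MMTV-CAF (SD, n = 3). They summed to 187 ± 2.55 in WT and 94.7 ± 1.36 in sgPrrx1 wound-healing fibroblasts (SD, n = 3). There 3 of 6 tested were lower and 2 higher, with ACTG2 going from 105 to 11.4 CPM and MCAM from 17.0 to 47.0. In MEF they summed to 152 ± 12.1 in WT, 55.6 ± 4.92 in sgPrrx1 and 133 ± 14.7 in mutant cultures (SD, n = 3). In mutant MEF 3 of 7 tested were lower and 2 higher, and in sgPrrx1 MEF 7 of 7 were lower. From WT to mutant MEF ACTG2 went from 56.1 to 5.77 CPM, CNN1 from 63.0 to 82.1 and MCAM from 24.2 to 38.3. The shares of all genes are those given for the fibroblast markers, and markers that passed the filter only through WT were kept here too. The part of these other markers in the collagen changes was not tested. The remaining sums were low: leukocyte markers at most 7.52 CPM in any group, skeletal muscle at most 6.08, Schwann and neural at most 2.72, and chondrocyte markers, led by SOX9, between 14.4 and 71.7.

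Sex-linked transcripts differed between some of the groups that were compared. XIST was at 428 CPM in WT and 342 in sgPrrx1 MMTV-CAF, which had no Y-linked counts, and at most 0.0620 elsewhere. The Y-linked KDM5D was at 11.01 CPM in WT MEF, 9.34 in sgPrrx1 MEF and 0.0118 in mutant MEF, where the Y-linked DDX3Y was at 21.2 against 15.8 in WT. In wound-healing fibroblasts DDX3Y was at 20.95 in WT and 2.03 in sgPrrx1 wound-healing fibroblasts. Differences between cell lines other than Prrx1 cannot be told apart from Prrx1 loss in these pairs.

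Likeness of log2 CPM over the 21 cultures was taken among 15093 genes that passed the filter on low counts and were listed for all cultures. By it, COL6A1 and COL6A2 were each other's closest match (Pearson r = 0.988). Next to them came RASSF2 (r = 0.988) for COL6A1 and MVD (r = 0.983) for COL6A2. COL6A3 was closest to PLOD1 (r = 0.975), a collagen lysyl hydroxylase, and ABHD14B (r = 0.969), COL12A1 to DAAM2 (r = 0.938) and SCD2 (r = 0.929), and COL18A1 to MOV10 (r = 0.990) and PLPP3 (r = 0.985). COL16A1 was closest to MS4A4D (r = 0.981) and IL6 (r = 0.979), COL8A1 to SLC25A17 (r = 0.970) and WLS (r = 0.956), COL14A1 to FNDC1 (r = 0.923) and CCDC3 (r = 0.921) and COL15A1 to D17H6S53E (r = 0.946) and ZFP839 (r = 0.936). Cultures of 1 group share a line and a level, so the 21 points hold 7 groups of like values, and these coefficients describe the matrix only.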

How the data were processed

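The values used were whole-number counts of reads for every gene, deposited by the authors unnormalized in 3 tables, 1 for each type of fibroblast. The labels and methods name TruSeq paired-end libraries, Trimmomatic for trimming, STAR for alignment to mm10 and HTSeq for counting. The methods end with a batch correction by ComBat-seq, named right after the human samples, and do not say whether it was applied to the mouse counts, so the deposited counts may be adjusted. All 21 columns were used and 0 were left without a sample. The wound-healing columns name no cell type and were assigned by elimination. Counts between 1 and 20 were even more often than odd (51.0 to 60.1% even per culture), so counts divided by 2 were tried as well, a choice made after seeing the data.

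In R 4.3.3 with edgeR 4.0.16 and limma 3.58.1, genes were kept by filterByExpr, scaled by TMM and tested by glmQLFit and glmQLFTest, with Benjamini-Hochberg adjustment over all genes and a threshold of 0.05. Each fit held the 6 cultures it compared. The interaction used the 18 WT and sgPrrx1 cultures, and the WT comparisons the 9 WT cultures. SE is the absolute log2 fold change divided by the square root of F. Alternatives were DESeq2 1.42.0, RLE and upper-quartile scaling, library totals alone for levels, no filter or a minimum of 10 counts throughout, a 2-fold minimum, a model of all 9 MEF cultures, the replicate block, and the removal of single cultures in turn. Steps were tested on simulated data. Exon lengths came from Gencode M1 (NCBIM37), a different build from the counts, and were used for RPKM only. Promoters came from RefSeq (GRCm38.p6). Plots used Python 3.11.15, numpy 2.4.6, pandas 2.3.3 and matplotlib 3.10.9.

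The text names every member, Prrx1, for each list of related genes those with the 2 largest falls and rises per comparison or the highest level (part of them), and for each member the 2 most alike genes. Marker genes at 0, EPCAM, PECAM1, KDM5D, DDX3Y, XIST, PDGFRA, PDPN, VIM, FAP, LUM, KRT18, KRT14, VWF, CSF1R, DES, ACTG2 and MCAM were named after their values were seen. Values of listed genes in further comparisons were added after they were seen. Members and lists were chosen with earlier results of these data known.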

Additional observations from a re-analysis of the deposited data

Results flagged for a closer look

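The change with sgPrrx1 differed between MEF, wound-healing fibroblasts and MMTV-CAF for 8 of the 9 collagen genes, by edgeR's test of the interaction of fibroblast type and sgPrrx1. The adjusted p was 1.97e-13 for COL6A3, 3.10e-11 for COL18A1, 3.75e-10 for COL12A1, 4.14e-10 for COL6A1 and 7.89e-09 for COL16A1. It was 2.07e-08 for COL8A1, 3.55e-07 for COL15A1 and 1.43e-05 for COL6A2. Most genes differed in this way (80.1% of those tested), and type cannot be told apart from cell line. COL14A1 had 0 counts in 2 of the sgPrrx1 groups and was left out.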

How the results depend on the processing

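Of the tested values recomputed under an alternative, 982 kept their direction and their side of the threshold, 13 lost their call, 9 gained one and 2 turned direction. DESeq2, RLE and upper-quartile scaling, no filter and counts divided by 2 (chosen after seeing the data) changed no count of members called by more than 1.5 times. Requiring a 2-fold change left 2 lower members in mutant MEF. These were COL14A1 and COL15A1, which passed the filter there only through WT, and 0 of the other 7 were lower. It left 3 lower and 1 higher in sgPrrx1 MMTV-CAF and 0 higher in sgPrrx1 wound-healing fibroblasts. In sgPrrx1 against mutant MEF 2 were lower and 0 higher, and 3 differed between WT wound-healing fibroblasts and MEF. No share of all genes under this minimum is given, so these counts have no background.

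Same-numbered cultures deviated from their group means with correlations across genes between −0.223 and 0.130, and not every culture matched its own number best, so the numbers were not taken to pair the cultures. With the replicate block, 3 members were lower in mutant MEF, where COL6A1 (edgeR adjusted p = 0.0729), COL6A2 (0.0550) and COL15A1 were no longer called. With it 0 were higher in sgPrrx1 than in mutant MEF, where COL6A3 was no longer called (0.0728). No share of all genes called with the block is given, so whether these losses are particular to the members was not tested. The block called COL14A1 between WT MMTV-CAF and WT MEF (0.0491) and WT wound-healing fibroblasts (0.0390). Leaving out each culture in turn gave between 4 and 7 lower members in mutant MEF, 6 to 7 in sgPrrx1 MEF, and 2 to 3 higher members in sgPrrx1 wound-healing fibroblasts and MMTV-CAF. WT MMTV-CAF differed from each other WT group in 8 to 9 members. COL8A1 in sgPrrx1 against mutant MEF ranged from a log2 fold change of −0.017 (without mutant replicate 3) to 0.23, and COL15A1 between WT wound-healing fibroblasts and MEF from −0.46 to 0.074 (without WT MEF replicate 3). The causes were not tested. COL14A1 and, outside WT MMTV-CAF, COL15A1 rest on at most 90 counts per culture.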
